A study of Homo sapiens with 6 samples.

Results

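The 10 genes described here activate or import long-chain fatty acids and were followed in HEK293 cells with and without the mitochondrial E3 ubiquitin ligase MUL1. They were chosen by name with earlier results of these data known, as 6 acyl-CoA synthetases (ACSL1, ACSL3, ACSL5, ACSL6, ACSBG1 and ACSBG2) and 4 fatty acid transport proteins (SLC27A1, SLC27A2, SLC27A4 and SLC27A5). Their relatives ACSL4, SLC27A3 and SLC27A6 are not among them and are described below. The members are 10 of 57123 genes with exon bins in the tables and 10 of the 25125 genes abundant enough to be tested. HEK293 is a line derived from human embryonic kidney. Its unedited cells (WT, 3 libraries) were compared with cells whose MUL1 gene had been inactivated by CRISPR-Cas9, written MUL1(-/-) (3 libraries). No treatment was applied, and both lines were grown in the same DMEM medium with fetal calf serum. The labels call the libraries samples 1 to 3 of each genotype and do not say whether they are separate cultures, nor how many knockout clones they come from, so p-values measure the spread between these libraries, which may be technical, and a difference between genotypes cannot be told apart from a difference between the cell populations used. Counts summed over the exons of genes were 134414503, 142803296 and 127015142 in WT libraries 1 to 3 and 122441959, 122305055 and 121917971 in MUL1(-/-) libraries 1 to 3. In the following, the values of a gene are given for libraries 1 to 3 of each genotype in that order, as CPM, which are counts scaled to a common library size, after TMM normalization, which scales each library by the bulk of its genes.

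MUL1 RNA did not check the genotype. It stood at 15.4, 15.2 and 19.0 CPM in WT and 18.7, 16.6 and 19.2 CPM in MUL1(-/-) libraries, and the groups overlapped (log2 fold change 0.14, SE 0.10, adjusted p = 0.321 by edgeR's quasi-likelihood test, which gives all adjusted p-values of genes below). An edit that inactivates a protein can leave its RNA in place, so the libraries are named by their labels. The 7 markers listed for HEK293 were all tested. PAX2, a transcription factor of developing kidney, was lower in MUL1(-/-) libraries (9.45 ± 1.5 against 2.72 ± 0.72 CPM, mean ± SD, n = 3), KRT8 was lower (324 ± 19 against 170 ± 12 CPM), VIM was lower (841 ± 93 against 665 ± 62 CPM), NEFM was higher (1.74 ± 0.085 against 3.64 ± 0.45 CPM), CDH2 was higher (62.2 ± 1.9 against 70.8 ± 3.4 CPM), and NEFL and KRT18 were not called. Markers of cells in which the fatty acid genes are best known were scarce. The summed level of 5 hepatocyte markers was 0.495 to 0.555 CPM in WT and 0.452 to 0.679 CPM in MUL1(-/-) libraries, and that of 3 adipocyte markers was 0.615 to 0.786 and 0.887 to 1.18 CPM, without overlap. Of these, PLIN1, the most abundant, was higher (0.592 ± 0.11 against 0.931 ± 0.15 CPM, log2 fold change 0.66, adjusted p = 0.0176), and ADIPOQ was at or under 3 counts in every library. The part of these markers in the results was not tested.

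A fatty acid is chemically inert in the cell until it is joined to coenzyme A. Acyl-CoA synthetases carry out this step at the expense of ATP, and the resulting acyl-CoA can be oxidized in mitochondria or peroxisomes or built into triglycerides, phospholipids and cholesteryl esters. The SLC27A proteins, or fatty acid transport proteins, promote uptake of fatty acids and in several cases are themselves acyl-CoA synthetases for very long chains or bile acids. The families differ in where they work: members of either are found on the endoplasmic reticulum, mitochondria, peroxisomes, lipid droplets or the plasma membrane, and several are strongest in liver, intestine, muscle, fat or brain.

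The DNA upstream of the start is shown for 4 members whose values are taken up below, because their starts differ in kind. RefSeq promoter windows, from 250 bases before to 50 bases after each annotated start on GRCh38.p14, were matched for 10 of 10 members, in 22 windows. Each sequence is the stretch of its window before the start that holds no exon of the same strand, read 5′ to 3′ on the strand of the gene, with the motif GCGTG in capitals. They lie at chr9:128340277-128340526 on the plus strand for SLC27A4, chr15:50181946-50182195 on the plus strand for SLC27A2, chr19:17470274-17470443 on the plus strand for SLC27A1 and chr15:78234708-78234815 on the minus strand for ACSBG1.
SLC27A4: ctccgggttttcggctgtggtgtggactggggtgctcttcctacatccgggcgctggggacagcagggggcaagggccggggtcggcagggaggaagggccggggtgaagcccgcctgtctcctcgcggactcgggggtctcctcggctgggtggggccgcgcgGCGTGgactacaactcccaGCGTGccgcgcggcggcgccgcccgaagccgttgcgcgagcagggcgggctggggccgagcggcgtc
SLC27A2: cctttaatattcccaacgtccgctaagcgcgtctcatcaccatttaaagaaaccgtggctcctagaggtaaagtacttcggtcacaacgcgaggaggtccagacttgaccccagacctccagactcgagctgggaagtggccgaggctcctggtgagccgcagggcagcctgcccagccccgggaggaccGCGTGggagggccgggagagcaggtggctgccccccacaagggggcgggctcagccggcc
SLC27A1: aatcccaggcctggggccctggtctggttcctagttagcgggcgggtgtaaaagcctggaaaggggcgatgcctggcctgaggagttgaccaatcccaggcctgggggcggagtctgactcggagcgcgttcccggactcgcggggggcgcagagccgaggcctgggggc
ACSBG1: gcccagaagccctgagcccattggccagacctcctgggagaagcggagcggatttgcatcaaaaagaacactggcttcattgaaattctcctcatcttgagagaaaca
In these stretches G and C made up 75.2% of the SLC27A4 bases, 64.4% of SLC27A2, 68.8% of SLC27A1 and 50.9% of ACSBG1, and the median over all 35116 RefSeq windows of 300 bases was 58.7%. The motifs searched on both strands were ACGTG and GCGTG, which are forms of the core of the hypoxia response element, AGGTCA, the half-site of many nuclear receptors, and TATAAA, the TATA box. Of these, GCGTG stood in 8 of the 22 member windows, which partly overlap, and in 36.5% of all windows, ACGTG in 1 and 21.4%, AGGTCA in 3 and 13.8%, and TATAAA in 1 and 11.5%. None of the 4 motifs stood in the ACSBG1 window. A match of letters is a description of the window and not a binding site.

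The members moved in both directions, and each by less than 2-fold, when all exons were counted. With the thresholds of the study (adjusted p under 0.05 and absolute log2 fold change above 1), 0 of 10 members were higher and 0 were lower in MUL1(-/-) libraries by edgeR, beside 4.23% and 3.87% of all tested genes. By DESeq2 the counts were also 0 and 0, beside 1028 and 870 of 45330 genes. By edgeR, 8 of 10 had an unadjusted p under 0.05, beside 45.8% of all tested genes. By the adjusted p alone, 5 members were higher (SLC27A2, SLC27A4, SLC27A5, ACSBG1 and ACSBG2), 2 were lower (SLC27A1 and ACSL6) and 3 were not called (ACSL1, ACSL3 and ACSL5), beside 18.8% of all tested genes higher and 18.7% lower. All 4 transporters among the members were called, 3 of them higher, and 3 of the 6 synthetases, 2 of them higher. Of the relatives left out of the members, ACSL4 was higher, SLC27A3 was lower and SLC27A6 was not called, as given below. On average 99.4% of the ACSBG1 counts in WT and 96.7% in MUL1(-/-) libraries lay in bins shared with another gene, IDH3A, described below. The median log2 fold change was 0.34 over the members and -0.01 over all tested genes. The 3 values of one genotype lay wholly above those of the other in 5 members that were higher and 1 that was lower, ACSL6, beside 24.1% and 24.4% of tested genes. In a culture, fewer cells that express a gene and less of its RNA per cell cannot be told apart.

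**Figure D1:**
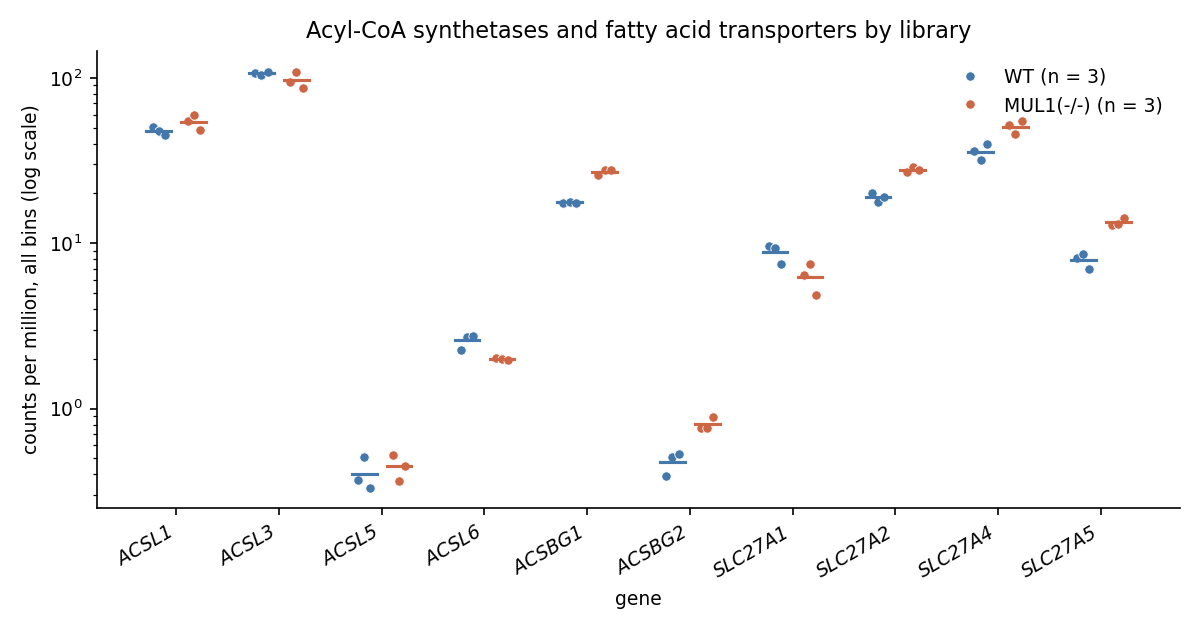
CPM of the 10 genes in each library on a log axis, with 3 WT libraries in blue and 3 MUL1(-/-) libraries in orange, each point 1 library and each bar the mean of 3. The groups do not overlap for ACSL6, ACSBG1, ACSBG2, SLC27A2, SLC27A4 and SLC27A5.

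Levels between genes were compared as CPM per kilobase of exon, counted only where no other gene has an exon. A read that crosses several short bins is counted in each, so these levels also depend on how finely a gene is cut into bins. They are averages over exons that can differ widely, as in SLC27A5 below. In WT libraries the order began with ACSL3 (15.5 ± 0.34 CPM per kb, mean ± SD, n = 3) and SLC27A4 (11.5 ± 1.3), followed by ACSL1 (7.58 ± 0.42) and SLC27A2 (7.54 ± 0.44), whose libraries overlapped. SLC27A1 (1.01 ± 0.13) and SLC27A5 (0.853 ± 0.13) came next and overlapped, then ACSL6 (0.228 ± 0.025, or 0.551 over all 65 bins that its exons touch, as described below), and ACSBG2 (0.114 ± 0.017) and ACSL5 (0.0846 ± 0.026) overlapped. ACSBG1 was last at 0.0243 ± 0.013 CPM per kb. In MUL1(-/-) libraries SLC27A4 (16.3 ± 1.5 CPM per kb) stood beside ACSL3 (14.04 ± 1.6), with overlapping libraries, SLC27A2 (10.9 ± 0.46) lay above ACSL1 (8.62 ± 0.86), SLC27A5 (1.57 ± 0.13) lay above SLC27A1 (0.718 ± 0.15), and ACSBG1 (0.216 ± 0.093) overlapped ACSBG2 (0.182 ± 0.0069). The 4 most abundant members thus stayed at the head of the list in both genotypes, with their order changed.

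SLC27A4 and SLC27A2 were the abundant members that rose. SLC27A4 (ENSG00000167114, chromosome 9, 128340646 to 128361470, GRCh38) encodes FATP4, which activates long and very long fatty acids on the endoplasmic reticulum. It stood at 36.1, 31.7 and 39.8 CPM in WT and 51.9, 45.5 and 54.5 CPM in MUL1(-/-) libraries, so the lowest MUL1(-/-) library lay above the highest WT library (1.41-fold, log2 fold change 0.50, SE 0.09, adjusted p = 0.000612). SLC27A2 (ENSG00000140284, chromosome 15, 50182196 to 50236395) encodes FATP2, a very long-chain acyl-CoA synthetase of peroxisomes and endoplasmic reticulum found in liver and kidney. Its values were 20.02, 17.9 and 19.1 CPM in WT and 27.0, 28.9 and 27.5 CPM in MUL1(-/-) libraries, again without overlap (1.46-fold, log2 fold change 0.55, SE 0.08, adjusted p = 7.05e-05). No other gene has exons in the 17 bins of SLC27A4. The bin that holds 16.2% of the SLC27A2 counts, in its exon 1, also holds exons of ATP8B4, a phospholipid flippase gene on the opposite strand, but 88.2% of the MUL1(-/-) counts of ATP8B4 themselves lay in shared bins. In its own bins without another gene it was at 0.346 ± 0.15 CPM in WT and 0.554 ± 0.12 CPM in MUL1(-/-) libraries (log2 fold change 0.67, adjusted p = 0.0886). In the 16 bins of SLC27A2 without ATP8B4 the log2 fold change was 0.53 (SE 0.09, adjusted p = 0.000141).

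SLC27A5 (ENSG00000083807, chromosome 19, 58479512 to 58512413, minus strand) encodes FATP5, the bile acid-CoA synthetase of liver. Its counts summed over all bins stood at 8.15, 8.62 and 6.97 CPM in WT and 12.9, 13.1 and 14.2 CPM in MUL1(-/-) libraries, without overlap (1.70-fold, log2 fold change 0.76, SE 0.10, adjusted p = 3.48e-05). These counts were spread very unevenly over the gene. The last 3 of the 10 exons of its principal transcript held 54.9%, 61.0% and 55.4% of the counts in WT and 56.7%, 63.4% and 64.8% in MUL1(-/-) libraries, and the first 7 exons held 3.99% to 5.02% and 3.91% to 6.76%. Per kilobase, the last 3 exons were at 7.75 ± 1.2 CPM in WT and 14.2 ± 1.6 CPM in MUL1(-/-) libraries, and the first 7 exons at 0.202 ± 0.040 and 0.422 ± 0.097 CPM, so MUL1(-/-) was 1.83-fold and 2.09-fold higher in the respective parts. The step lay between exon 7, at 0.127 CPM per kb in WT, and exon 8, at 15.4 CPM per kb. A further 20.04% to 32.7% of the counts of a library lay in 2 bins far downstream that also hold exons of ZNF446, a zinc finger gene on the plus strand, whose own level was 9.78 ± 0.54 CPM in WT and 12.4 ± 1.9 CPM in MUL1(-/-) libraries (log2 fold change 0.34, adjusted p = 0.0266, and 0.36, adjusted p = 0.0426, in its bins without another gene). In the 26 bins of SLC27A5 without another gene the log2 fold change was 0.89 (SE 0.12, adjusted p = 3.89e-05), and in its most counted bin alone, the larger of the 2 that hold ZNF446 exons, it was 0.40 (adjusted p = 0.0188).

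SLC27A1 went the other way. This gene (ENSG00000130304, chromosome 19, 17468769 to 17506168) encodes FATP1, the insulin-responsive transporter of muscle and fat. It stood at 9.61, 9.41 and 7.53 CPM in WT and 6.44, 7.54 and 4.85 CPM in MUL1(-/-) libraries (0.709-fold, log2 fold change -0.50, SE 0.15, adjusted p = 0.0142), and WT library 3 and MUL1(-/-) library 2 met at the same level. The call rested on 2 libraries: the log2 fold change was -0.44 with an adjusted p of 0.0673 without WT replicate 1 and -0.45 with 0.0587 without WT replicate 2. Without MUL1(-/-) replicate 3, the lowest library, it was -0.34 (adjusted p = 0.0368).

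Of the ACSL synthetases, the 2 abundant ones were not called. ACSL3 (ENSG00000123983, chromosome 2, 222860934 to 222944639), which serves lipid droplet growth from the endoplasmic reticulum, had the highest CPM of all members. It stood at 107, 105 and 109 CPM in WT and 94.3, 108 and 87.3 CPM in MUL1(-/-) libraries, with overlap (log2 fold change -0.14, 95% interval -0.30 to 0.01, adjusted p = 0.175). ACSL1 (ENSG00000151726, chromosome 4, 184755595 to 184826818), the main long-chain synthetase of liver, heart and fat, stood at 50.3, 47.6 and 45.0 CPM in WT and 54.8, 59.3 and 48.5 CPM in MUL1(-/-) libraries (log2 fold change 0.19, 95% interval 0.02 to 0.35, adjusted p = 0.0918). Both intervals lie well inside a 2-fold change. Either gene passed the test under single alternatives. Without MUL1(-/-) replicate 3, ACSL1 was called higher (log2 fold change 0.26, adjusted p = 0.0143), as it was with library totals (0.26, adjusted p = 0.0204) and with no filter on low counts (0.22, adjusted p = 0.0450), and without MUL1(-/-) replicate 2, ACSL3 was called lower (-0.22, adjusted p = 0.0435).

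ACSL6 and ACSL5 were weakly counted. ACSL6 (ENSG00000164398, chromosome 5, 131949973 to 132012243, minus strand), a brain synthetase with a preference for polyunsaturated fatty acids, stood at 2.27, 2.73 and 2.76 CPM in WT and 2.03, 2.00 and 1.98 CPM in MUL1(-/-) libraries (0.775-fold, log2 fold change -0.37, SE 0.13, adjusted p = 0.0396). Every MUL1(-/-) library lay below every WT library, but the call was lost when any library but WT replicate 1 was left out, with a log2 fold change of -0.36 to -0.32 and an adjusted p of 0.0598 to 0.142. In the tables ACSL6 shares a joined identifier with MEIKIN, a meiosis gene, and with the gene ENSG00000281938, and 33 bins touch no exon of these. One of them, from 131949976 to 131953897, just beyond the 3′ end of its principal transcript, held 54.1% of the counts, with 172, 213 and 202 counts in WT and 111, 133 and 129 in MUL1(-/-) libraries (log2 fold change of the bin -0.58, adjusted p = 0.00125 over all bins tested). The other 4 tested bins, in the first and last exons of that transcript, had log2 fold changes from -0.64 to 0.41 and were not called. With the further 32 bins that hold exons of ACSL6 and of the joined genes, the values became 6.48, 7.68 and 7.37 CPM in WT and 5.22, 5.77 and 5.54 CPM in MUL1(-/-) libraries (log2 fold change -0.38, SE 0.11, adjusted p = 0.0111). ACSL5 (ENSG00000197142, chromosome 10, 112374018 to 112428380), an intestinal and mitochondrial synthetase, had 42 to 72 counts in a WT and 46 to 66 in a MUL1(-/-) library. Its values of 0.370, 0.509 and 0.333 CPM in WT and 0.522, 0.367 and 0.452 CPM in MUL1(-/-) libraries overlapped (log2 fold change 0.14, 95% interval -0.34 to 0.62, adjusted p = 0.693). On average 21.1% of its WT and 19.2% of its MUL1(-/-) counts lay in bins with exons of other genes, among them ZDHHC6 (43.1 ± 4.5 against 35.7 ± 4.3 CPM, log2 fold change -0.27, adjusted p = 0.0374) and the gene ENSG00000232934 (0.263 ± 0.048 against 0.263 ± 0.018 CPM).

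ACSBG1 differed from the other members in how far its result depended on which of its exons were counted. The gene (ENSG00000103740, chromosome 15, 78167468 to 78245688, minus strand) encodes a bubblegum-type synthetase for long and very long chains, known from brain, adrenal gland and testis. Over all 39 bins it stood at 17.6, 17.7 and 17.6 CPM in WT and 25.9, 27.6 and 27.7 CPM in MUL1(-/-) libraries (1.53-fold, log2 fold change 0.62, SE 0.08, adjusted p = 1.80e-05). Its last exon, however, lies over the last exon of IDH3A, the catalytic subunit gene of the NAD-dependent isocitrate dehydrogenase of the citric acid cycle, which is read from the plus strand of chromosome 15 from 78131498 to 78171949. Strand made no difference to the counting: 12 stretches with a bin on either strand over identical bases had at least 100 counts, and the count of the lesser strand divided by that of the greater had a median of 1.00. The largest ACSBG1 bin, 3386 noncoding bases at the 3′ end from 78167468 to 78170853, alone held 96.4% of the counts of the gene.

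The counts in the overlap moved as IDH3A did. The 3 ACSBG1 bins with IDH3A exons had 2218, 2493 and 2215 counts in WT and 3148, 3300 and 3381 in MUL1(-/-) libraries, or 17.5 ± 0.088 against 26.2 ± 1.2 CPM, a ratio of 1.49. The 46 bins of IDH3A that hold no other gene were at 81.7 ± 3.3 CPM in WT and 122 ± 4.7 CPM in MUL1(-/-) libraries, also a ratio of 1.49, and IDH3A as a whole was higher at 119, 113 and 115 against 166, 167 and 178 CPM (log2 fold change 0.56, SE 0.06, adjusted p = 9.15e-06).

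Away from IDH3A, ACSBG1 was barely counted in WT and clearly counted in MUL1(-/-) libraries. The 36 bins without another gene, 4168 bases in all, held 20, 14 and 6 counts in WT and 129, 152 and 58 in MUL1(-/-) libraries, or 0.157, 0.0990 and 0.0476 against 1.02, 1.21 and 0.468 CPM. The lowest MUL1(-/-) library, with 58 counts, lay above the highest WT library, with 20. In the fit to bins without another gene the log2 fold change was 3.14 (8.83-fold, SE 0.39, adjusted p = 1.27e-05), past both thresholds, beside 4.42% of the 22504 genes in that fit that were higher by both. It remained past both under all 11 alternatives, between 2.81 and 3.58. With 6 counts in WT library 3, the gene passed the filter on low counts only with the help of MUL1(-/-) libraries. The call is therefore not independent of its higher level there. The counts were spread over the gene: 31, 32 and 25 of the 36 bins had at least 1 count in MUL1(-/-) libraries and 12, 11 and 5 in WT, and the summed count was larger in MUL1(-/-) libraries in 33 bins and larger in WT in 1. These bins made up 0.894%, 0.558% and 0.270% of the ACSBG1 counts in WT and 3.94%, 4.40% and 1.69% in MUL1(-/-) libraries, a difference of 2.77 percentage points (two-sided exact permutation test, p = 0.1, the smallest that 3 against 3 libraries can give). A read that crosses several short bins is counted in each, so these counts stand for fewer reads. Among tested genes with a mean of 0.1 to 1 CPM over all libraries, 8.40% were higher by both thresholds, against 0.785% at 10 to 100 CPM, and the part of the low level in the size of the ACSBG1 change was not tested.

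The 5′ end of ACSBG1 showed the same contrast at the limit of the counts. Its bins are among those without another gene summed above, so they are no separate sign of the contrast. The 4 bins at and before the RefSeq start, from 78234526 to 78234707 and just downstream of the sequence printed above, held 0 counts in every WT library, which allows up to 3, and between 1 and 4 counts each in MUL1(-/-) libraries. The adjoining bin of exon 1, from 78234371 to 78234525, held 0, 0 and 1 counts in WT and 4, 7 and 2 in MUL1(-/-) libraries. The bin farthest upstream, 420 bases from 78245269 to 78245688, is the first exon of 3 longer transcripts and held 2, 0 and 0 counts in WT and 15, 12 and 2 in MUL1(-/-) libraries. Beside ACSBG1, the markers of astrocytes and steroidogenic cells, in which the enzyme is best known, were at low levels: the 6 genes summed to 5.06 to 5.23 CPM in WT and 5.18 to 7.55 CPM in MUL1(-/-) libraries, ALDH1L1 was the most abundant and higher (2.502 ± 0.46 against 3.41 ± 0.38 CPM, adjusted p = 0.0283), STAR was higher by both thresholds (0.157 ± 0.027 against 0.394 ± 0.058 CPM, log2 fold change 1.32, adjusted p = 0.00151), GFAP, AQP4 and CYP17A1 were not called, and CYP11A1 was too low to be tested. Their part in the ACSBG1 result was not tested.

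ACSBG2 (ENSG00000130377, chromosome 19, 6135247 to 6193094), the bubblegum synthetase of testis, had 50, 72 and 67 counts in WT and 96, 96 and 110 in MUL1(-/-) libraries. Its values of 0.393, 0.509 and 0.532 CPM in WT and 0.759, 0.767 and 0.887 CPM in MUL1(-/-) libraries did not overlap (1.68-fold, log2 fold change 0.75, SE 0.20, adjusted p = 0.00741). Most of these counts lay at the 3′ end: of the 15 exons of its principal transcript, exons 14 and 15 had 38 and 79 counts over the WT and 74 and 111 over the MUL1(-/-) libraries, and exons 4 to 6 had 0 in both. Exon 14 lies over an exon of RFX2, a ciliary transcription factor gene on the minus strand (7.11 ± 0.76 against 9.32 ± 1.7 CPM over all its bins, log2 fold change 0.39, adjusted p = 0.0303, and 0.34, adjusted p = 0.0893, in its bins without another gene). Without that bin the log2 fold change of ACSBG2 was 0.67 (adjusted p = 0.0250), and in its most counted bin, which lies in exon 15, it was 0.57 with an adjusted p of 0.187 over all bins tested.

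Single exon bins gave a view of whether a change ran through a whole gene. Of the 327 bins of the members, 141 were counted well enough to be tested. By both thresholds 5 were higher, beside 2.41% of all 319709 tested bins. By both thresholds 0 were lower, a count given here without the share of all bins. By the adjusted p alone 48 were higher and 9 lower, beside 14.6% and 15.1%. In SLC27A2 and SLC27A4 the change ran along the whole gene: 12 of 12 and 16 of 17 tested bins were higher, with log2 fold changes from 0.36 to 0.78 and from 0.36 to 0.65. In SLC27A5, 12 of 16 tested bins were higher and all 16 had a log2 fold change above 0, with a median of 0.87 and 4 bins past both thresholds. Of these 4, the bin of exon 7 had 2, 4 and 4 counts in WT and 13, 10 and 10 in MUL1(-/-) libraries. A bin of exon 5 had 7, 8 and 5 against 14, 18 and 10. Bins so low in WT were tested only because of their MUL1(-/-) counts, so their calls are no separate sign of a rise. The other bin past both thresholds was that of ACSBG2 which it shares with RFX2 (log2 fold change 1.02, adjusted p = 0.0192). SLC27A1 showed 8 of 24 tested bins lower and 0 higher, and the lowest value, -0.96 (adjusted p = 0.00218), was that of a bin from 17495415 to 17497254 that is outside the exons of its principal transcript. For ACSL6 1 of 5 tested bins was lower, with a median of -0.04, for ACSL1 5 of 33 bins were higher, and for ACSL3 0 of 29 passed in either direction and 3 of them lay above 0. Bins of one gene share reads and are not independent.

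**Figure D2:**
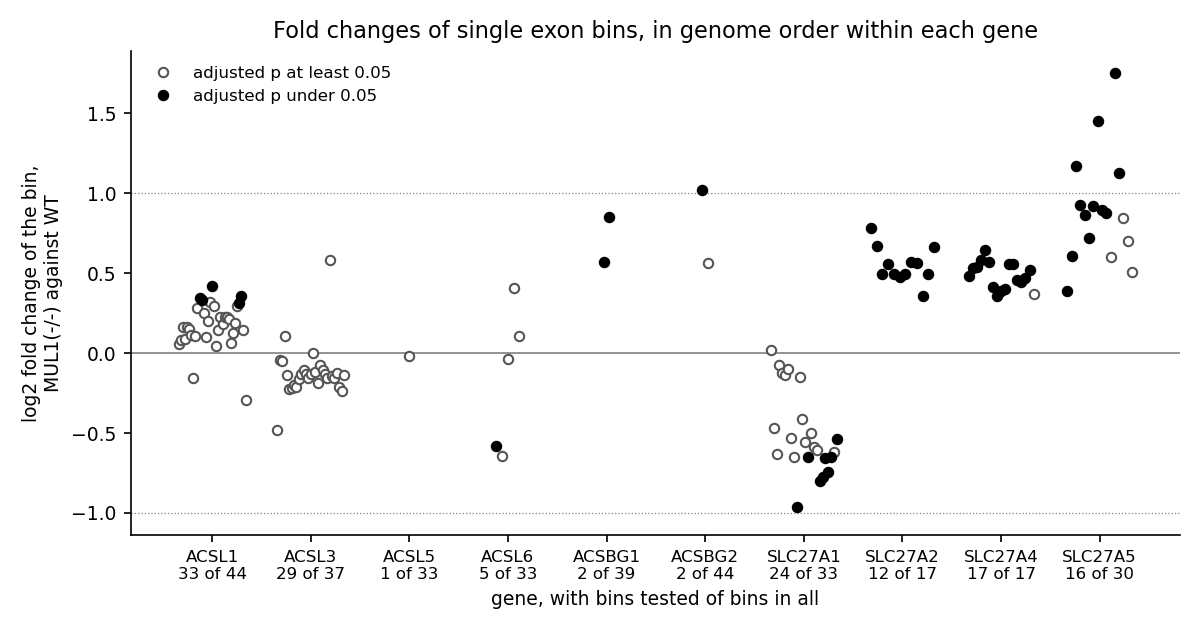
Log2 fold change, MUL1(-/-) against WT, of each tested exon bin of the 10 genes, in genome order within a gene, with filled points for an adjusted p under 0.05 and dotted lines at a 2-fold change. Bins of SLC27A2, SLC27A4 and SLC27A5 all lie above 0, and those of SLC27A1 reach -0.96.

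The nearest 20 tested genes on the chromosome, 10 on each side, were set beside each member, a comparison added after the data were seen. Around SLC27A2 and SLC27A4 their median log2 fold change was -0.07 and 0.02, and both members stood apart from it by 0.62 and 0.48. Around ACSBG2 it was 0.62, with 19 of 20 neighbours above 0, which leaves 0.13 of the 0.75 of ACSBG2. Around SLC27A5 it was 0.40, with 20 of 20 neighbours above 0, leaving 0.36. Around ACSBG1 it was 0.34, with 17 of 20 above 0, leaving 0.27 of its 0.62 over all bins. Most of those ACSBG1 counts lay in bins shared with IDH3A, so the 0.27 is not a value of ACSBG1 alone. In its bins without another gene the log2 fold change was 3.14. Around SLC27A1 it was -0.26, with 4 of 20 above 0, leaving -0.24. The neighbours' part in the members' changes was not tested. For the remaining members the neighbours' medians were -0.00 (ACSL1), -0.05 (ACSL3), -0.34 (ACSL5) and -0.10 (ACSL6). ACSL5, which was not called, stood above the median of its neighbours by 0.48, with 4 of 20 neighbours above 0.

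**Figure D3:**
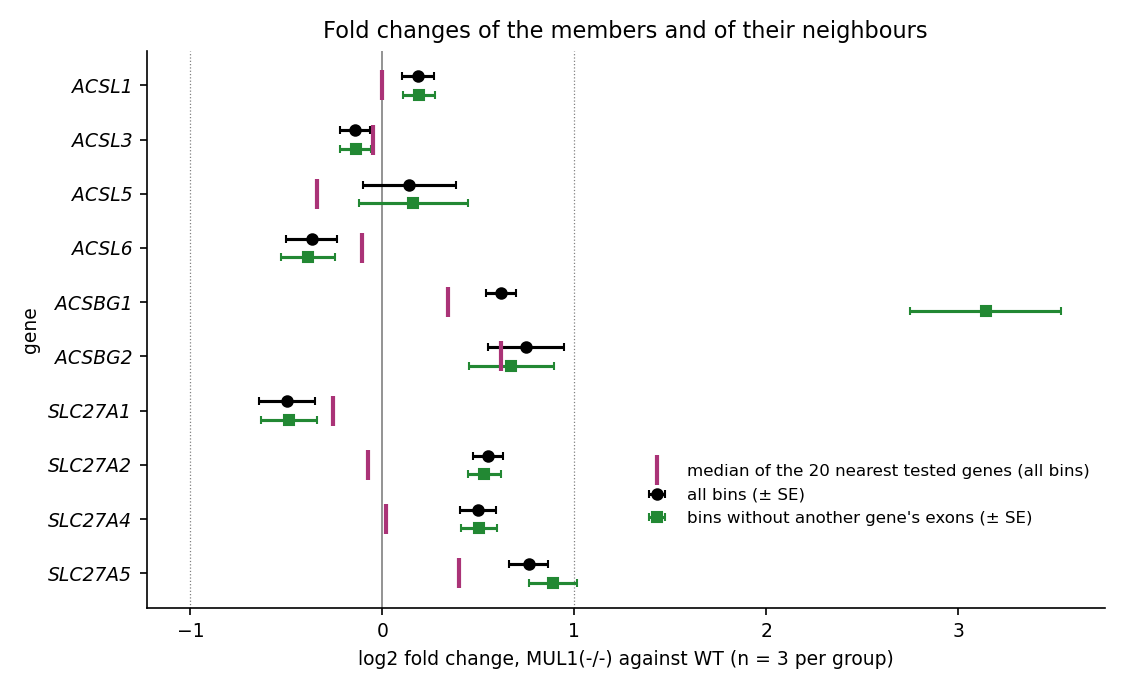
Log2 fold change, MUL1(-/-) against WT, of each gene over all bins (black, ± SE), over bins without exons of another gene (green, ± SE) and the median of its 20 nearest tested genes (purple), with dotted lines at a 2-fold change. ACSBG1 moves from 0.62 to 3.14 when the bins of IDH3A are left out, and ACSBG2 lies next to the median of its neighbours.

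Around these members, 6 lists of 65 related genes of fatty acid metabolism and its regulation were examined, of which 57 could be tested. By both thresholds 1 was higher, ACOT6, and 1 lower, ACOT12, and by the adjusted p alone 14 were higher and 13 lower, beside the shares of all genes given above. The median log2 fold change of the 57 was -0.01. The 3 remaining relatives of the families went separate ways. ACSL4, which activates arachidonic acid, stood at 64.2, 62.3 and 54.8 CPM in WT and 75.0, 87.9 and 67.1 CPM in MUL1(-/-) libraries, without overlap (log2 fold change 0.34, SE 0.09, adjusted p = 0.00958). SLC27A3 stood at 28.8, 29.7 and 23.4 against 22.7, 24.7 and 19.9 CPM (-0.29, adjusted p = 0.0404), with overlapping groups, and SLC27A6 at 4.90, 5.41 and 4.44 against 4.28, 5.50 and 4.97 CPM (-0.00, adjusted p = 0.995).

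Of 8 tested synthetases for short and medium chains 3 were lower and 1 higher, with a median log2 fold change of -0.05. ACSF2, the most abundant of them, fell from 54.7 ± 3.6 to 46.7 ± 2.8 CPM (log2 fold change -0.23, adjusted p = 0.0288). Of the acyl-CoA thioesterases, which undo the work of the synthetases, 4 were higher and 4 lower of 11 tested. ACOT12, a liver acetyl-CoA hydrolase, stood at 0.323, 0.565 and 0.659 CPM in WT and 0.0474, 0.0879 and 0.0323 CPM in MUL1(-/-) libraries (log2 fold change -3.18, SE 0.39, adjusted p = 1.64e-05), ACOT6 at 0.157, 0.0707 and 0.151 against 0.356, 0.280 and 0.290 CPM (1.30, SE 0.33, adjusted p = 0.00631), with 90.4% of its MUL1(-/-) counts in bins shared with another gene, and ACOT7, the most abundant, fell from 102 ± 9.6 to 71.2 ± 4.2 CPM (-0.52, adjusted p = 0.000112). The list of acyl-CoA binding proteins and the carnitine shuttle gave 4 higher and 1 lower of 13, and ACBD6, the most abundant, was not called (0.11, adjusted p = 0.222). Of the other genes of uptake and peroxisomal import 2 were higher and 1 lower of 9, and ABCD3, the most abundant and a peroxisomal transporter, rose from 83.4 ± 5.6 to 114 ± 9.1 CPM (0.45, adjusted p = 0.000301). Of 13 tested transcriptional regulators 2 were higher and 3 lower, and SREBF2, the most abundant, fell from 153 ± 20 to 113 ± 11 CPM (-0.44, adjusted p = 0.00193).

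A few further genes of these lists were picked after their values were seen, for their place in the pathway. ACSS2, the cytosolic acetyl-CoA synthetase, fell from 21.2 ± 1.4 to 13.3 ± 0.18 CPM (log2 fold change -0.67, adjusted p = 1.95e-05). ACOT2, a thioesterase of the mitochondrial matrix, rose from 14.8 ± 0.95 to 23.5 ± 1.5 CPM (0.67, adjusted p = 2.58e-05). SREBF1, a regulator of fatty acid synthesis, rose from 45.6 ± 5.1 to 71.8 ± 12 CPM (0.66, adjusted p = 0.000304), and MLXIPL, which answers to glucose, fell from 30.7 ± 4.7 to 19.5 ± 2.7 CPM (-0.65, adjusted p = 0.000461). LPL, which frees fatty acids from lipoproteins, rose from 6.39 ± 1.0 to 10.0 ± 0.92 CPM (0.65, adjusted p = 0.000702). CPT1A, the gate of carnitine-dependent entry into mitochondria, stood at 13.6, 13.3 and 13.9 CPM in WT and 7.41, 7.12 and 16.3 CPM in MUL1(-/-) libraries (-0.41, adjusted p = 0.176), so that 2 MUL1(-/-) libraries lay below and 1 above all WT libraries.

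**Figure D4:**
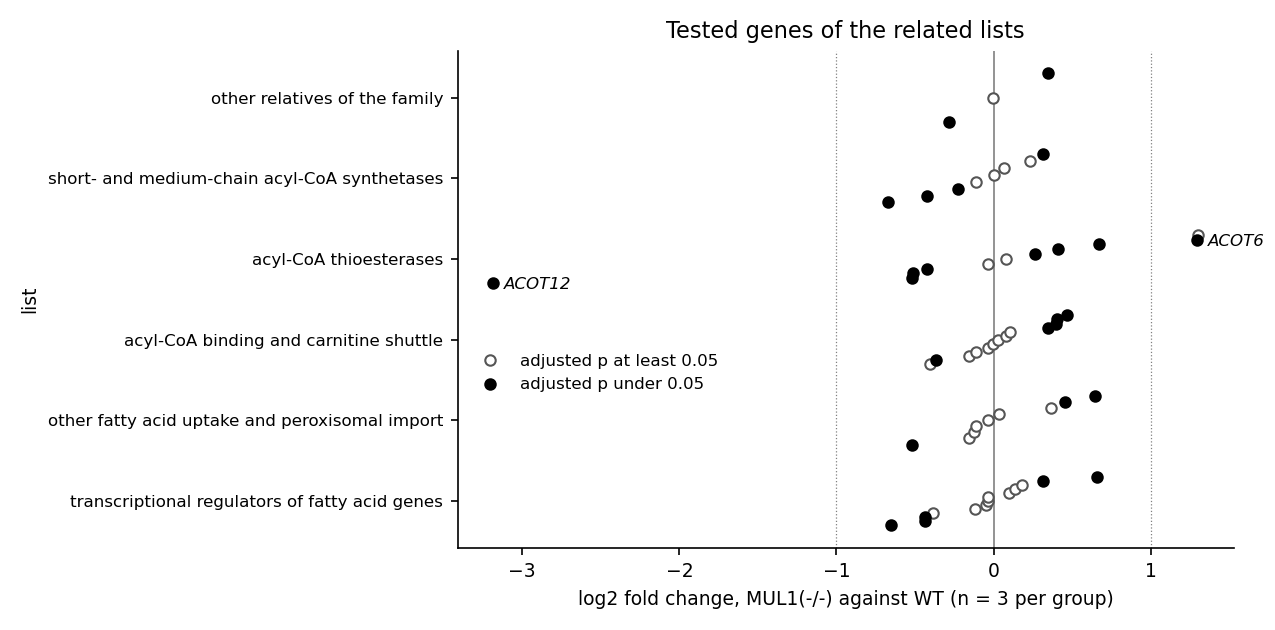
Log2 fold change, MUL1(-/-) against WT, of the 57 tested genes in 6 lists of related genes, each point 1 gene, filled for an adjusted p under 0.05, with dotted lines at a 2-fold change. Only ACOT12 and ACOT6 are past both thresholds, and the other called genes lie within a 2-fold change in both directions.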

How the data were processed

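For the authors, mRNA libraries (3 WT and 3 MUL1(-/-)) were made from total RNA and sequenced by a company. The deposited tables hold raw counts per exon bin of a flattened annotation on GRCh38, and the submitters' processing notes name Trimmomatic 0.36 and STAR 2.5.2b. The counting program is not given in the sources used here. Bins were summed per gene. Bins of joined identifiers were given to a gene when the GENCODE 29 exons of 1 joined gene alone touched them, which left 4.37% of counts to no gene. Reads that touch several bins count in each.

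Tests used edgeR 4.0.16 under R 4.3.3 (TMM, filterByExpr, quasi-likelihood test, Benjamini-Hochberg adjustment over all genes, or over all bins). DESeq2 1.42.0 and limma 3.58.1 were alternatives. Tests were tested on simulated data. A second fit used only bins that no exon of another gene touches on either strand. The floor was set at 3 counts and covers counting error only. Named genes were MUL1, the members, the genes joined with ACSL6 and genes over a bin with at least 10% of a member's counts. In each list the genes past both thresholds and the most abundant gene were named. All other relatives of the families were named too, and 6 further list genes were picked after their values were seen. In the marker lists, further genes were named whether or not they were called. Between libraries of one genotype, chi-square over its degrees of freedom was 2.64 to 9.29, which also holds the repeat counting of reads over bins. No pair was identical, and all were kept separate. Standard errors were taken from the fold change and the F statistic, and 95% intervals are 1.96 standard errors either way. Members and lists were chosen with earlier results of these data known. Figures were drawn with matplotlib 3.10.9 in Python 3.11.15. RefSeq promoters are of GRCh38.p14. The result of 1 marker gene is not reported here.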

Additional observations from a re-analysis of the deposited data

How the results depend on the processing

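Of the members, ACSBG1, SLC27A2, SLC27A4 and SLC27A5 were higher by the adjusted p under every alternative run, ACSBG2 under every alternative that tested it but that of the most counted bin, taken in each library by itself (adjusted p = 0.115; with at least 1 CPM in 3 samples it was not tested), and 0 members were past both thresholds under any alternative that counts all bins. For ACSBG1, every alternative but that of bins without another gene counted bins shared with IDH3A, which held most of its counts. By both thresholds 1 member, ACSBG1, was higher in bins without another gene. By the adjusted p alone in place of both thresholds, the counts were 5 members higher and 2 lower, 14 list genes higher and 13 lower, and 48 member bins higher and 9 lower. The count of lower members by the adjusted p, 2, was 1 with library totals, with no filter on low counts and in the fit with a replicate block, and ranged from 0 to 2 when 1 library was left out. ACSL6 was lost in these 3 settings (log2 fold change -0.30, -0.34 and -0.36, adjusted p = 0.1002, 0.103 and 0.0528). The cause was not tested. Leaving out 1 library gave 0 to 2 list genes higher and 1 lower by both thresholds (ACOT6 was lost without WT replicate 2), 8 to 12 lower by the adjusted p, 0 to 2 member bins lower by both thresholds and 2 to 13 by the adjusted p. With the most counted bin of each gene in each library, 0 list genes were lower by both thresholds. The difference in the share of ACSBG1 counts outside IDH3A was 2.24 to 3.60 percentage points when 1 library was left out.

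Same-numbered libraries did not deviate together in every pair (correlations of their deviations from the group means -0.08, 0.16 and 0.10 over 15855 genes). Between libraries of different numbers the correlations ran from -0.18 to 0.0996. The numbers were therefore not taken to pair the samples. The replicate block moved no other count of calls by more than 1.5 times, and gave 3.16 for the log2 fold change of ACSBG1 without IDH3A. Depth limits ACSL5, ACSBG2 and the bins of ACSBG1 outside IDH3A, where single libraries held 6 to 152 counts.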

Other observations

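Of the leukocyte markers 2 of 3 tested were higher by both thresholds, PTPRC among them (0.0951 ± 0.061 against 0.365 ± 0.064 CPM, log2 fold change 1.94, adjusted p = 0.000850 by edgeR), and CD3E was at or under 3 counts in every library. The 5 markers of endothelium and fibroblasts summed to 21.2 to 26.6 CPM in WT and 18.4 to 22.4 CPM in MUL1(-/-) libraries, with DCN, PECAM1 and VWF higher by both thresholds (log2 fold changes 1.30, 2.06 and 1.80) and COL1A1, the most abundant, lower (21.9 ± 2.5 against 16.8 ± 1.9 CPM, -0.39, adjusted p = 0.00832). Their part in the results of the fatty acid genes was not tested.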
